A study of Danio rerio with 8 samples.

Results

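The gene of the Cdk inhibitor p21, cdkn1a, and 9 further regulators of the step from G1 into S phase (cdkn1bb, cdkn1ca, cdkn2c, ccnd1, ccne1, ccne2, cdk2, cdk4 and e2f1) were examined in zebrafish endothelial cells from embryos labelled as ddx21 mutants and their siblings. They were taken by their Ensembl gene names, case ignored. Of the 10 names, 9 matched 1 identifier each. The name cdkn1bb is not in the name table, which gives 2 identifiers the shared symbol CDKN1B, and both are reported by identifier because which of them is cdkn1bb was not settled. This gave 11 genes of the 32520 in the count table, of which 10 passed the filter on low counts and were tested and 1, cdk4, did not.

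Cells were sorted at 3 days post fertilisation from embryos carrying 2 transgenes, Tg(fli1a:nEGFP), a green nuclear reporter under fli1a control that marks endothelium, and Tg(5.2lyve1b:DsRed), a red reporter under lyve1b control that labels vessels of venous and lymphatic type. Double-positive cells, described as venous and lymphatic endothelial cells, gave 4 RNA sequencing libraries from embryos labelled ddx21_mutant and 4 from embryos labelled ddx21_sibling. The labels used here give neither the allele, nor the genotype of the siblings, nor the number of embryos per sort. The series title ties Ddx21, a nucleolar RNA helicase, to Vegfc-driven lymphangiogenesis, ribosome biogenesis and p53-p21 signalling. Hence the question of how p21 and the genes it acts on behaved.

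In the cell cycle, D-type cyclins bound to Cdk4 or Cdk6 begin to phosphorylate the retinoblastoma proteins, which frees E2F transcription factors to switch on genes for S phase, cyclin E among them. Cyclin E with Cdk2 then completes the step. The Cip/Kip inhibitors p21, p27 (encoded by CDKN1B genes) and p57 (encoded by cdkn1c genes) bind cyclin-Cdk complexes, and p18, encoded by cdkn2c, belongs to the INK4 family that binds Cdk4 and Cdk6 alone. In mammals p53 switches on the p21 gene after nucleolar stress, when free ribosomal proteins block Mdm2, and the zebrafish cdkn1a gene is likewise a p53 target.

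The libraries held from 38459219 to 51173007 counted reads and between 18051 and 25329 genes with at least 1 read. Levels below are CPM, reads in each 1000000 of a library after TMM scaling, and a count of 0 allowed at most 0.0738 CPM (3 counts) in any library. Such floors and counts cover counting error only. Sibling libraries held 312 ± 51.4 CPM of ddx21 and mutant libraries 221 ± 40 CPM (SD, n = 4 each), with the mutant below its sibling in 4 of 4 same-numbered pairs, although mutant 2 (266 CPM) lay above sibling 1 (245 CPM). Endothelial markers were present in both groups, with cdh5 at 400 ± 203 and 385 ± 181 CPM and kdrl at 370 ± 164 and 343 ± 83.3 CPM, and so were venous and lymphatic ones. Of the latter, lyve1b, the gene of the sort reporter, stood at 722 ± 77 and 553 ± 125 CPM, FLT4, the Vegfc receptor gene, at 308 ± 55.6 and 246 ± 69 CPM, and PROX1, a lymphatic regulator, at 19.3 ± 9.26 and 9.61 ± 8.56 CPM (SD, n = 4 each). Of the 15 venous and lymphatic markers listed, 11 had a log2 fold change, mutant over sibling, below 0 and 4 above. Of these 4, lyve1a measured 517 ± 224 and 966 ± 602 CPM. It was higher in 4 of 4 pairs, as 8.0% of tested genes were. Of the 15, 3 (lyve1b, FLT4 and TBX1) were lower in 4 of 4 pairs, as 8.42% of tested genes were. TBX1, at 117 ± 20.7 and 82.6 ± 13.2 CPM, was lower without overlap (1.83% of tested genes). In the edgeR test given below, 2 of the 15 (OSR2 and TBX1) were lower at an unadjusted p under 0.05 (1.67% of tested genes). The summed level of all 15 ran from 2800 to 3518 CPM in siblings and from 2373 to 4012 CPM in mutants. Markers of other cells were present as well. The summed level of 13 epidermal markers ran from 4642 to 51912 CPM in siblings and from 6197 to 86782 CPM in mutants. That of 15 pan-endothelial markers ran from 3876 to 8622 and from 2950 to 8145 CPM. Of those 15 genes, 13 had a log2 fold change below 0 and 2 above. In 4 of 4 pairs, 4 of them were lower (8.42% of tested genes) and 0 higher. FLI1, among those lower, measured 1043 ± 345 and 897 ± 390 CPM. No defining marker of any list of 8 cell types was at 0 throughout.

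Of the 18549 tested genes 0 (0.0%) reached an adjusted p below 0.05 (Benjamini-Hochberg) in edgeR's quasi-likelihood test of mutants against siblings, so that none of the 10 tested regulators did. The smallest adjusted p was 0.18. At an unadjusted p under 0.05 it gave 556 genes (3.0%) and 0 of the 10 regulators. No label used here says that same-numbered libraries belong together, and they were taken as pairs from how the libraries varied. With the replicate number as a block the test again called 0 genes and gave 1086 at an unadjusted p under 0.05 (5.85%). It placed cdkn1a among the higher and 1 CDKN1B gene among the lower of these (2.98% and 2.88% of all genes). DESeq2 called 62 genes, none of them among the 10 tested regulators.

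The level of cdkn1a was higher in the mutant of every same-numbered pair, although the groups overlapped. Its level (ENSDARG00000076554) was 79.9, 90, 192 and 146 CPM in siblings 1 to 4 and 172, 152, 248 and 206 CPM in mutants 1 to 4. Sibling 3 lay above mutants 1 and 2, and in each group the libraries numbered 3 and 4 lay above those numbered 1 and 2. The means were 127 ± 52.1 and 195 ± 42.2 CPM (SD, n = 4 each). Within pairs the log2 difference was 1.1, 0.75, 0.37 and 0.50, a mean of 0.68 ± 0.32 (SD of 4 pairs). Of all tested genes, 8.0% were higher in the mutant of all 4 pairs. The fitted log2 fold change was 0.62 (SE 0.30, 95% interval -0.06 to 1.29) without the block and 0.68 (SE 0.16, 0.29 to 1.08) with it, where the gene ranked at position 127 by p (edgeR adjusted p = 0.67 over all genes). On log2(CPM + 0.5), the exact permutation test, two-sided, gave p = 0.11, where 4 against 4 libraries allow no p below 0.029, and p = 0.029 without sibling 3, the smallest it then allows. DESeq2 with the block, an alternative added after the data had been seen, called it (log2 0.68, adjusted p = 0.014), where it called 0.987% of genes higher and 1.85% lower. Limma-voom with quality weights and the block, the other such addition, did not (log2 0.65, adjusted p = 0.24).

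**Figure D1:**
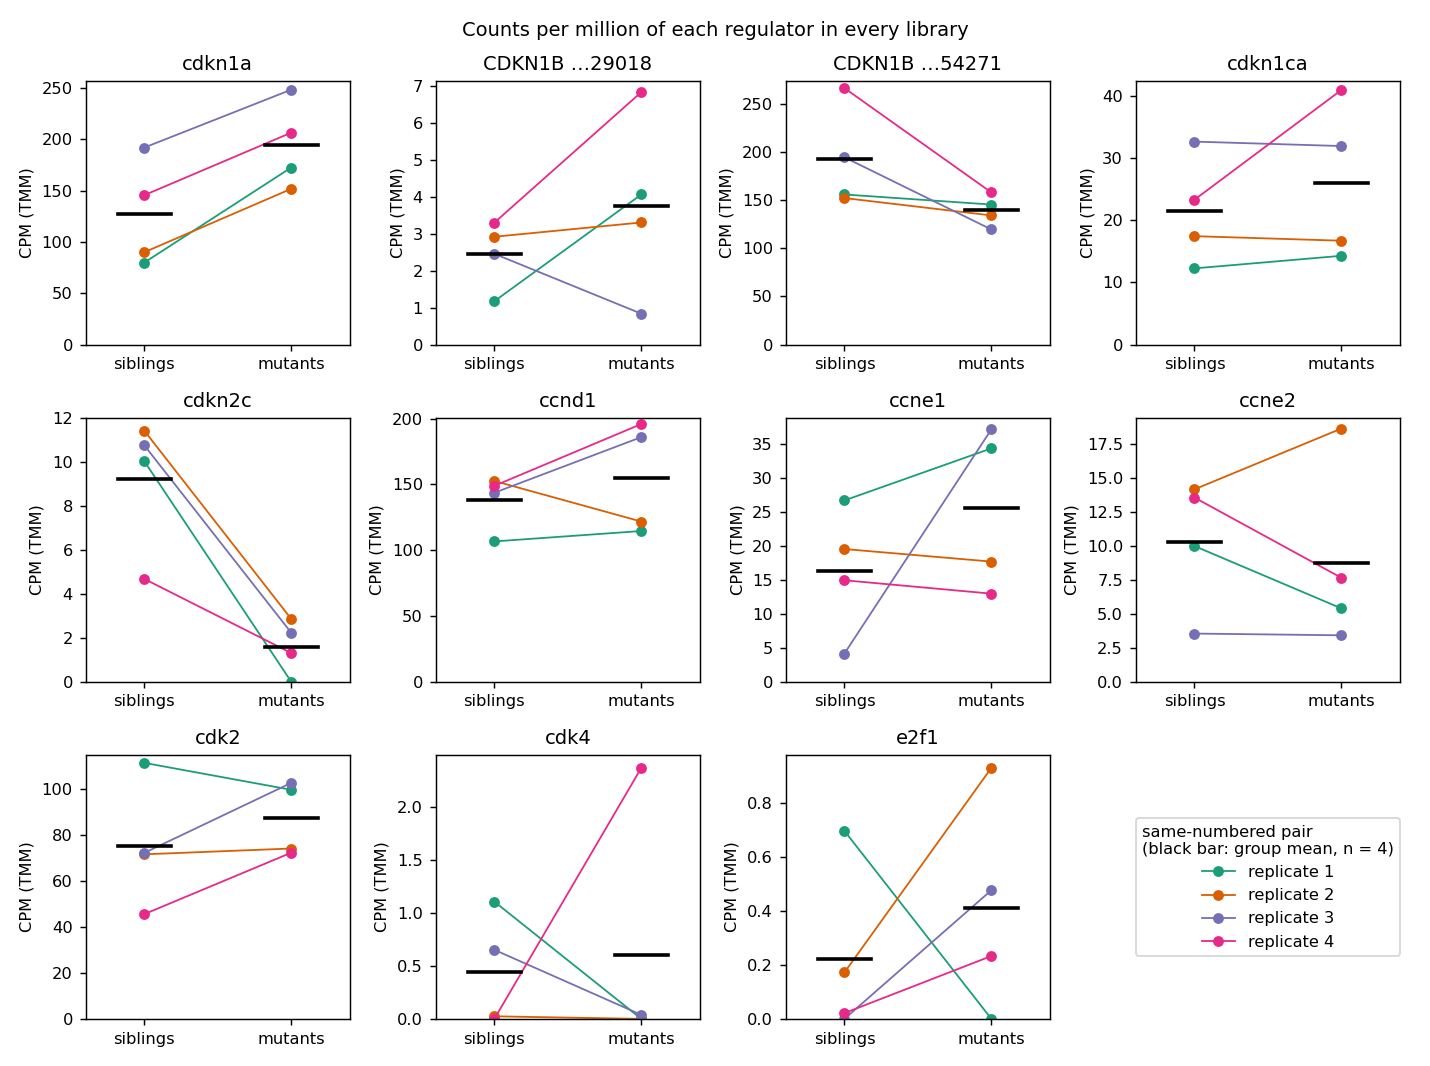
CPM (TMM-scaled, linear axes from 0, a scale of its own in each panel) of the 11 regulators in the 4 sibling and 4 mutant libraries, with lines joining same-numbered libraries and black bars at the group means. The cdkn1a lines all go up, from 79.9 to 172 CPM in pair 1 for example, while those of cdkn2c and of CDKN1B ENSDARG00000054271 all go down.

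The more abundant p27 gene went the other way. The CDKN1B gene ENSDARG00000054271 measured 156, 152, 195 and 266 CPM in siblings 1 to 4 and 145, 134, 120 and 158 CPM in mutants 1 to 4. Sibling 4 was the highest library and mutant 3 the lowest, and the groups overlapped only in that mutant 4 lay above siblings 1 and 2. The means were 192 ± 53 and 139 ± 16.4 CPM, and the mutant was lower in 4 of 4 pairs, as it was for 8.42% of tested genes. The pair differences were -0.10, -0.18, -0.70 and -0.75 on the log2 scale, so that pairs 3 and 4 differed most and pair 1 least, the reverse of cdkn1a. The fit gave a log2 fold change of -0.46 (SE 0.22, 95% interval -0.96 to 0.03) and, with the block, -0.43 (SE 0.17, edgeR adjusted p = 0.83). The other CDKN1B gene, ENSDARG00000029018, was scarce, at 2.47 ± 0.927 and 3.77 ± 2.47 CPM (log2 0.61, SE 0.89). Its mutant libraries held both the lowest and the highest value of the 8, 0.839 CPM in mutant 3 and 6.85 CPM in mutant 4.

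The INK4 gene cdkn2c was the regulator whose groups did not overlap. Its level was 10, 11.4, 10.8 and 4.68 CPM in siblings 1 to 4 and 0, 2.86, 2.23 and 1.31 CPM in mutants 1 to 4. The highest mutant lay below the lowest sibling, as for 1.83% of tested genes, and mutant 1 held 0 reads, which by counting error alone allows at most 0.0719 CPM. Mutant 1 had 19366 genes with a read, and sibling 4, the lowest sibling, had 18064, against 25329 in sibling 1. Mutant 4, with 18051, still held reads of cdkn2c. Whether this bears on the level of cdkn2c was not tested. In reads, the siblings held 418, 465, 529 and 218 and the mutants 0, 126, 117 and 73. The means were 9.23 ± 3.08 and 1.60 ± 1.24 CPM (SD, n = 4 each). The fitted log2 fold change of -2.53 (SE 1.18, 95% interval -5.17 to 0.11) did not pass, and with the block it was -3.0 (SE 1.47, edgeR adjusted p = 0.91). Without mutant 1, the library at 0, it was -2.11.

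For the p57 gene cdkn1ca the level followed the replicate number more than the group. It measured 12.3, 17.4, 32.6 and 23.3 CPM in siblings 1 to 4 and 14.3, 16.7, 31.9 and 40.9 CPM in mutants 1 to 4. As for cdkn1a, libraries 3 and 4 were above libraries 1 and 2 in both groups, but the pairs differed by only 0.21, -0.06, -0.03 and 0.80 on the log2 scale. The log2 fold change was 0.28 (SE 0.43, 95% interval -0.67 to 1.23), and it turned to -0.03 without mutant 4.

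**Figure D2:**
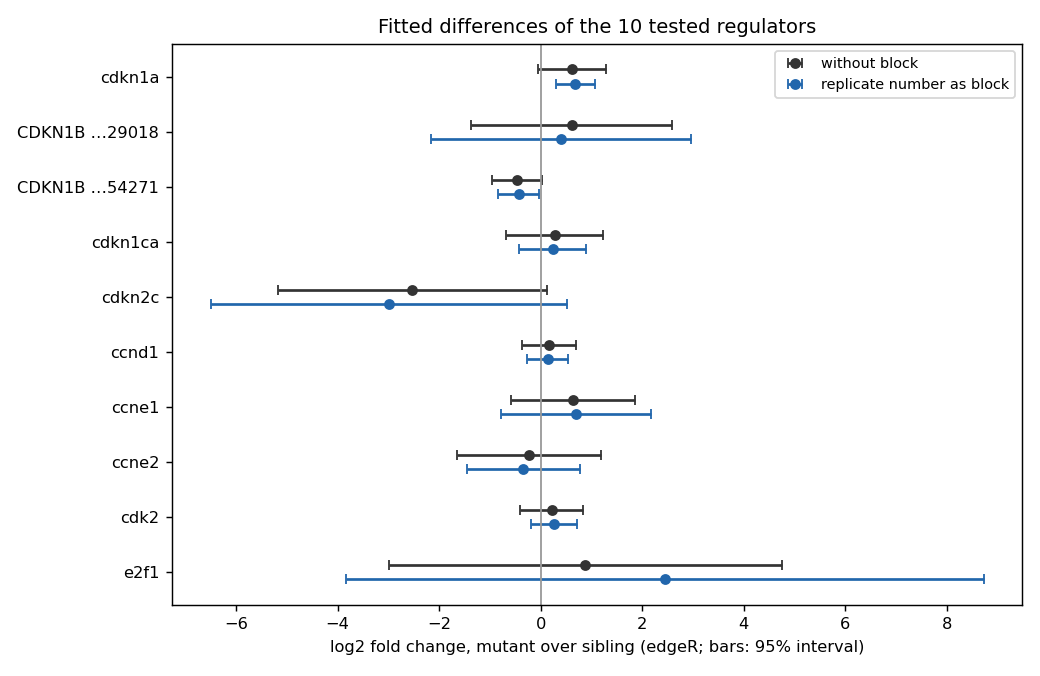
Fitted log2 fold change, mutant over sibling, of the 10 tested regulators (x axis), with 95% intervals, from edgeR without a block (black) and with the replicate number as a block (blue). With the block the intervals of cdkn1a (0.29 to 1.08) and CDKN1B ENSDARG00000054271 (-0.83 to -0.04) leave 0, unadjusted for the number of genes tested, and those of e2f1 and cdkn2c are the widest.

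Whether cdkn1a changed relative to another inhibitor was tested as the log2 ratio of their levels within each library. That ratio does not depend on the scaling of libraries beyond the pseudocount of 0.5. It also rises where the other gene falls, so it cannot tell which gene moved more. The mean log2 difference within pairs was 0.68 for cdkn1a, -0.43 for CDKN1B ENSDARG00000054271 and -2.45 for cdkn2c. The ratio of cdkn1a to CDKN1B ENSDARG00000054271 averaged -0.65 ± 0.43 over siblings and 0.46 ± 0.40 over mutants (SD, n = 4 each), without overlap: the sibling libraries lay between -0.96 and -0.02 and the mutant libraries between 0.18 and 1.05. The difference of 1.12 was higher in 4 of 4 pairs and reached the smallest p the two-sided exact permutation test allows (p = 0.029, adjusted p = 0.057 over 4 ratios). The ratio to cdkn2c was 3.69 ± 0.93 in siblings and higher in mutants, at 6.82 ± 1.22, likewise with no overlap and in 4 of 4 pairs (exact permutation p = 0.029, adjusted p = 0.057). In mutant 1, with 0 reads of cdkn2c, the size of that ratio (8.43) rests on the pseudocount. Relative to cdkn1ca the difference was 0.45, in 3 of 4 pairs (exact permutation p = 0.17, adjusted p = 0.23, and unadjusted p = 0.029 without mutant 4), and relative to CDKN1B ENSDARG00000029018 it was 0.33, in 2 of 4 pairs (exact permutation p = 0.77, adjusted p = 0.77). After adjustment no ratio passed. Of the 5 inhibitor genes so far described, cdkn1a was higher in all 4 pairs, CDKN1B ENSDARG00000054271 and cdkn2c were lower in all 4, and the other 2 were mixed.

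**Figure D3:**
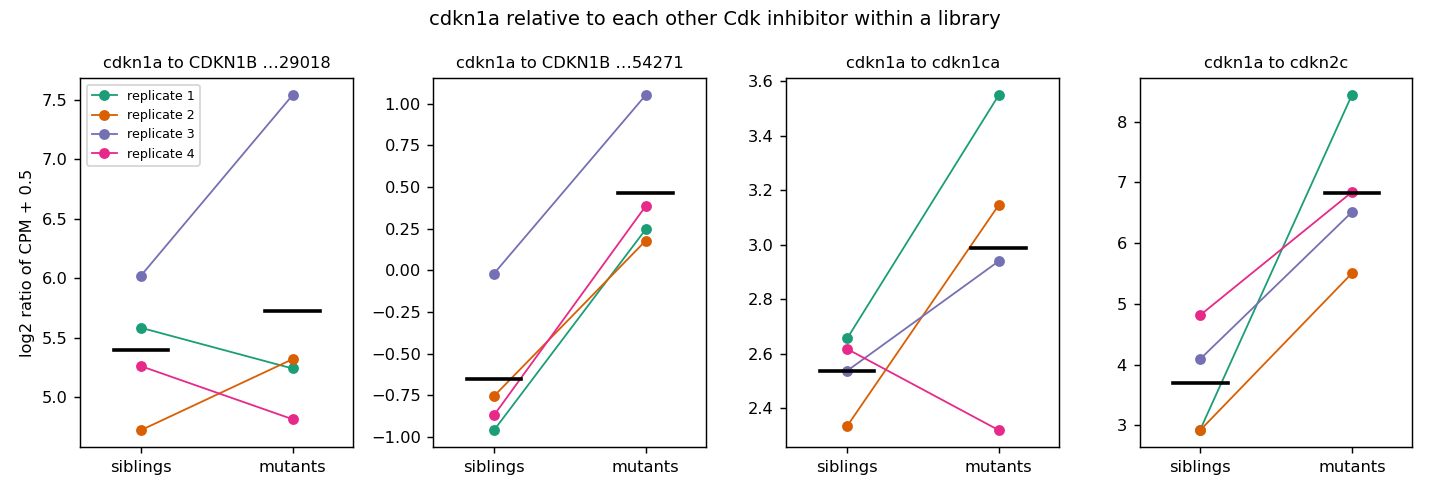
Log2 ratio of cdkn1a (CPM + 0.5) to each of the 4 other inhibitor genes (panels, each with its own scale) in sibling and mutant libraries, with lines joining same-numbered libraries and black bars at the means. Sibling and mutant points are separate in the panels for CDKN1B ENSDARG00000054271 and cdkn2c and mixed in the other panels.

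Further inhibitors did not pass either. Of 6 further genes on the list of Cdk inhibitors 5 were tested and 0 were under an unadjusted p of 0.05, with a median log2 fold change of 0.32 against 0.003 over all tested genes. The INK4 gene cdkn2a/b held 0.216, 0.467, 0 and 0 CPM in siblings 1 to 4 and 2.30, 0.635, 0.381 and 0.466 CPM in mutants 1 to 4. It was higher in 4 of 4 pairs, as 8.0% of tested genes were, although the groups overlapped. The pair differences were 1.97, 0.23, 0.82 and 0.95 on the log2 scale in pairs 1 to 4, largest in pair 1. Every mutant library lay above the level of 3 reads, which was at most 0.0719 CPM in mutants, while siblings 3 and 4 held 0. The fitted log2 fold change was 2.46 (SE 1.71). The second p57 gene, cdkn1cb, measured 4.49 ± 1.38 and 5.71 ± 1.93 CPM, and CDK2AP2, a Cdk2-associated protein gene, 38.3 ± 14.5 and 43.1 ± 20.7 CPM (SD, n = 4 each).

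Among the G1 cyclins, ccnd1, which encodes cyclin D1, did not separate the groups. Its level was 107, 153, 144 and 149 CPM in siblings 1 to 4 and 115, 122, 186 and 196 CPM in mutants 1 to 4. Mutants 3 and 4 were the highest libraries and sibling 1 the lowest. The log2 fold change was 0.16 (SE 0.24), and its 95% interval of -0.36 to 0.69 leaves room for a change either way. On a list of further G1 and S cyclins and Cdks 9 genes were tested, 5 with a log2 fold change above 0 and 4 below. At an unadjusted p under 0.05 there were 0, and 1 was higher in 4 of 4 pairs (8.0% of all genes). With the block 1 was higher at that level (2.98% of all genes). Both times this was a cyclin D2 gene, CCND2 ENSDARG00000051748, at 83.3 ± 17.7 and 107 ± 21.3 CPM (log2 0.36, SE 0.24). Its duplicate ENSDARG00000070408 was low, with 10.1 CPM in mutant 1 and at most 2.85 CPM in the other 7 libraries.

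The cyclin E genes differed between libraries far more than between groups. For ccne1 the level was 26.7, 19.5, 4.15 and 14.9 CPM in siblings 1 to 4 and 34.3, 17.7, 37.1 and 13 CPM in mutants 1 to 4. Sibling 3 stood low, and pair 3 alone gave a log2 difference of 3.02 where the other pairs gave 0.36, -0.14 and -0.20. Its log2 fold change was 0.65 (SE 0.55, 95% interval -0.58 to 1.87), and 0.31 without sibling 3. For ccne2 the level was 9.97, 14.1, 3.54 and 13.5 CPM in siblings 1 to 4 and 5.39, 18.6, 3.41 and 7.64 CPM in mutants 1 to 4. Both libraries numbered 3 were low and mutant 2 was high, and the log2 fold change of -0.23 (SE 0.64, 95% interval -1.65 to 1.19) turned to 0.03 without mutant 3.

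The kinase gene cdk2, whose product pairs with cyclin E, was expressed in every library. The values were 112, 71.7, 72.3 and 45.6 CPM in siblings 1 to 4 and 99.8, 74.2, 103 and 72.4 CPM in mutants 1 to 4. Sibling 1 was the highest and sibling 4 the lowest, so that the mutants lay inside the range of the siblings (log2 0.21, SE 0.28, 95% interval -0.41 to 0.83). The gene annotated as cdk4 was close to unread, with 46, 1, 32 and 0 reads in siblings 1 to 4 and 0, 0, 2 and 132 reads in mutants 1 to 4. It failed the filter, and no difference was tested. CDK6, the alternative partner of D-type cyclins, was also scarce, at 0.814 and 1.25 CPM on average.

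The transcription factor gene e2f1 was likewise near the limit of counting, with 29, 7, 0 and 1 reads in siblings 1 to 4 and 0, 41, 25 and 13 reads in mutants 1 to 4. These are 0.223 ± 0.325 and 0.410 ± 0.398 CPM (SD, n = 4 each), and the 95% interval of the log2 fold change, -2.99 to 4.74, does not settle its direction. Its relatives carried more reads. Of the 13 genes of the Rb and E2F family, all tested, 10 had a log2 fold change above 0 (9307 of all 18549 genes did), with a median of 0.40, and 1 was higher at an unadjusted p under 0.05 (1.33% of all genes). That gene was e2f3, an activating E2F, at 17.2, 14, 14.1 and 13.9 CPM in siblings 1 to 4 and 18.5, 33.7, 25.3 and 28.5 CPM in mutants 1 to 4. All mutant libraries lay above all sibling libraries, as for 1.42% of tested genes, although mutant 1 exceeded sibling 1 by little (log2 0.84, SE 0.28, edgeR adjusted p = 0.9995). RB1, which encodes the retinoblastoma protein, measured 39.3 ± 12.4 and 57 ± 6.52 CPM (log2 0.54, SE 0.26). RBL2, a gene of the same family, measured 2.84 ± 0.973 and 7.05 ± 5.79 CPM and was higher in 4 of 4 pairs.

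Genes that E2F factors switch on for S phase lay on both sides of 0. Of 35 tested, 20 had a log2 fold change above 0 and 15 below, with a median of 0.10, and 0 were at an unadjusted p under 0.05. With the block 22 were above 0 and 13 below, and 4 were higher and 1 was lower at that level, where 2.98% and 2.88% of all genes were. MCM5, of the replicative helicase, measured 155 ± 25.9 and 197 ± 32.2 CPM (log2 0.35, SE 0.20), and POLD1, a DNA polymerase subunit, 67.8 ± 21.2 and 96.8 ± 31.3 CPM (log2 0.51, SE 0.31). Both were higher in 4 of 4 pairs, whereas ORC1, of the origin recognition complex, was lower in 4 of 4 pairs at 54.6 ± 8.07 and 41.6 ± 8.29 CPM. MCM5, POLD1 and ORC1 had the smallest p of the list. Of the 35, 5 were higher and 3 lower in 4 of 4 pairs, where 8.0% and 8.42% of all genes were. PCNA, the replication clamp gene, was read at 316 and 371 CPM on average. Of 23 mitosis genes tested, 12 were above 0, with a median of 0.00 and 0 at an unadjusted p under 0.05. The proliferation marker mki67 stood at 63 and 65.6 CPM (log2 0.06, SE 0.22), plk1, a mitotic kinase, at 43 ± 10.5 and 66.8 ± 34.3 CPM, and cenpe, a kinetochore motor, at 14.9 ± 5.81 and 21.9 ± 5.63 CPM.

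Genes on a list drawn up here for the turnover of p27 and cyclin E gave the same picture. Of them 0 of 13 were at an unadjusted p under 0.05, with a median of 0.08. The list also held CUL4A, CUL4B, DDB1 and DTL, and the targets of each ligase in these cells were not tested. SKP2, which targets p27, measured 16.1 and 14.6 CPM on average (log2 -0.14, SE 0.42), and FBXW7, which targets cyclin E, 5.31 and 5.88 CPM (log2 0.15, SE 0.58). The smallest p was that of CKS2 ENSDARG00000117089, a Cdk-binding protein gene, at 20.1 ± 5.58 and 32.2 ± 10.1 CPM (log2 0.68, SE 0.33).

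**Figure D4:**
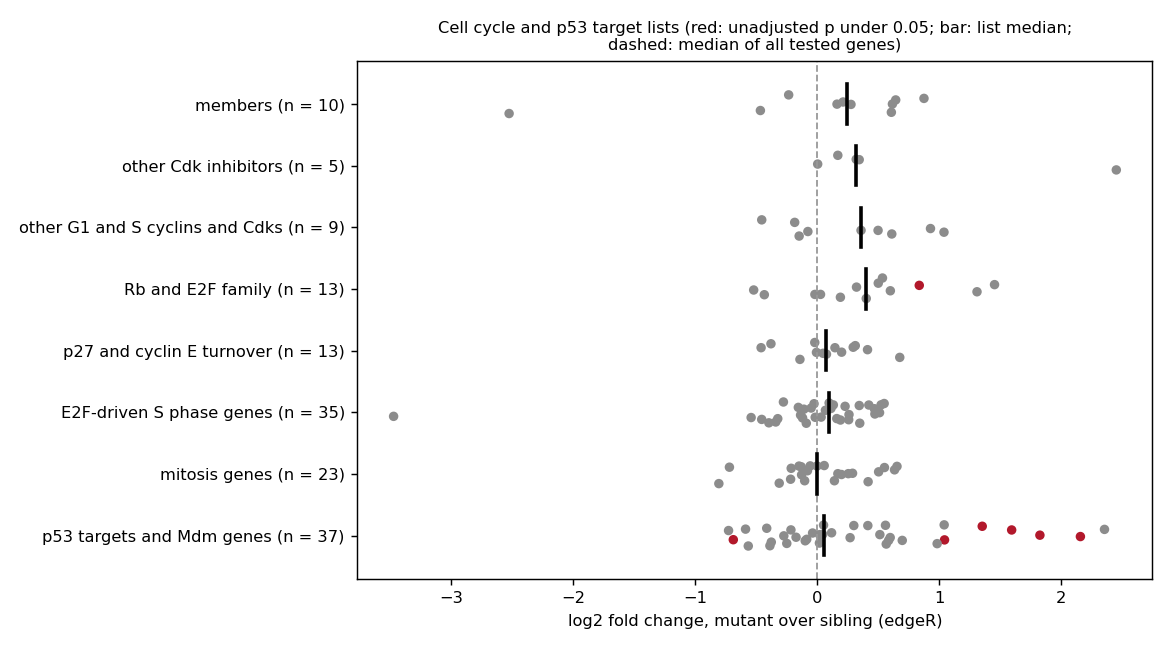
Fitted log2 fold change, mutant over sibling (x axis), of every tested gene of the regulators and of 7 lists (rows), with bars at list medians, a dashed line at the median of all tested genes (0.003) and points at an unadjusted p under 0.05 in red. The only red points are e2f3 and 6 genes of the p53 target row, 5 higher and 1 lower.

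Genes on a list, drawn up here, of p53 targets and Mdm genes ranged widely around cdkn1a. Whether each of them responds to p53 in these cells was not tested. Of 37 tested genes on that list 23 had a log2 fold change above 0, with a median of 0.05, against 0.62 for cdkn1a itself. At an unadjusted p under 0.05, 5 were higher and 1 lower (1.33% and 1.67% of all genes), and with the block 7 and 3 (2.98% and 2.88%). In 4 of 4 pairs 10 were higher and 3 lower (8.0% and 8.42% of all genes). Without overlap 4 were higher (1.42%) and 0 lower (1.83%). The genes on the list with the smallest p, and mdm2, differed more than cdkn1a, a contrast that was not tested. CCNG1, encoding cyclin G1, had a log2 fold change of 1.83 (SE 0.31), PHLDA3 2.16 (SE 0.44), rps27l 1.36 (SE 0.26) and mdm2, the p53 ligase gene, 1.05 (SE 0.23). CCNG1 held 194, 297, 164 and 107 CPM in siblings 1 to 4 and 804, 789, 556 and 557 CPM in mutants 1 to 4, so that its libraries numbered 3 and 4 were the low ones in each group. The lower gene was CCNG2, a cyclin G2 gene, at 299 and 186 CPM on average (log2 -0.69, SE 0.26), and it was lower in 4 of 4 pairs. These genes are described here because earlier results of the same libraries had shown them, and they are no independent support.

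Over the 8 libraries the genes most like cdkn1a, by Pearson's r of log2(CPM + 0.5) among 11353 genes with a mean of at least 5 CPM, were kctd9b (r = 0.98), SSR3 (0.97), lygl1 (0.96), si:ch211-274k16.6 (0.95) and ARF5 (0.95). The most opposite were timd4 (r = -0.96), FUCA1 (-0.92) and CLSTN2 (-0.90). In kctd9b the siblings held 2.38, 3.25, 10.4 and 7.73 CPM and the mutants 11.5, 9.55, 14.8 and 13.8 CPM. This is the order of libraries seen for cdkn1a, except that mutant 1 lay above sibling 3. Of the other regulators cdkn1ca was most like it (r = 0.75), followed by ccnd1 (0.58), while ccne2 (-0.63) and cdkn2c (-0.55) ran opposite and CDKN1B ENSDARG00000054271 stood at -0.13. For mdm2 r was 0.70, and for CCNG1 0.38. For deviations from the group means it was 0.37 and -0.67, and of p53 targets PLK2 ENSDARG00000090752 (0.82) and TP53I11 ENSDARG00000006025 (0.75) were then most like cdkn1a. For the regulators just named, r of the deviations was 0.82 for cdkn1ca, 0.58 for ccnd1 and -0.67 for ccne2. It was -0.04 for cdkn2c and 0.49 for CDKN1B ENSDARG00000054271. These values describe 8 libraries that share replicate numbers and mixed cell content, and with so many genes compared some high values arise in any case.

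The level of cdkn1a moved with cell markers across replicate numbers. The summed pan-endothelial markers measured 3982, 3876, 7781 and 8622 CPM in siblings 1 to 4 and 2950, 4292, 6877 and 8145 CPM in mutants 1 to 4, and were thus higher in libraries 3 and 4 of both groups, as cdkn1a was. Epidermal markers were the reverse, at 33110, 51912, 10591 and 4642 CPM in siblings and 86782, 62110, 13486 and 6197 CPM in mutants. Within pairs the epidermal sum was higher in the mutant of 4 of 4, as cdkn1a was, whereas the endothelial sum was higher in pair 2 and lower in the other 3. Some markers of other cells also moved with the group, those of liver and yolk in most of their genes. Of 17 tested, 16 had a log2 fold change below 0 (median -3.12), 12 were lower at an unadjusted p under 0.05 (1.67% of all genes) and 12 did not overlap between groups, with the mutants lower (1.83%). Their summed level ran from 1320 to 5561 CPM in siblings and from 402 to 2723 CPM in mutants, with the mutant below its sibling in all 4 pairs. Of 13 epidermal markers 9 had a log2 fold change above 0 and 4 below, and 5 were higher in 4 of 4 pairs (8.0% of all genes). Of 11 skeletal muscle markers 10 were above 0 and 1 below, and 5 were higher in 4 of 4 pairs. With the block 5 of either list were higher at an unadjusted p under 0.05 (2.98% of all genes) and 0 lower. The muscle sums were 1346 to 5812 CPM in siblings and 2125 to 6861 CPM in mutants. The muscle sum was lower in mutant 4 (5320 CPM) than in sibling 4 (5812 CPM) and higher in the mutant of the other pairs. Of 10 tested leukocyte markers 2, the antigen presentation genes cd74a (18.1 ± 7.08 and 4.15 ± 1.28 CPM) and cd74b (26.6 ± 6.7 and 7.08 ± 5.33 CPM), were lower without overlap. Of the same 10, 4 were lower in 4 of 4 pairs (8.42% of all genes) and 1, LCP1, was higher in 4 of 4 (8.0%). LCP1 measured 89.4 ± 10.1 and 110 ± 32.8 CPM. Sums of the leukocyte list were 293, 365, 257 and 199 CPM in siblings 1 to 4 and 353, 435, 344 and 146 CPM in mutants 1 to 4. These sums were thus higher in the mutant of pairs 1 to 3 and lower in pair 4. In bulk RNA fewer cells of a type and less RNA per cell cannot be told apart, and the part of cell content in the level of any regulator was not tested.

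**Figure D5:**
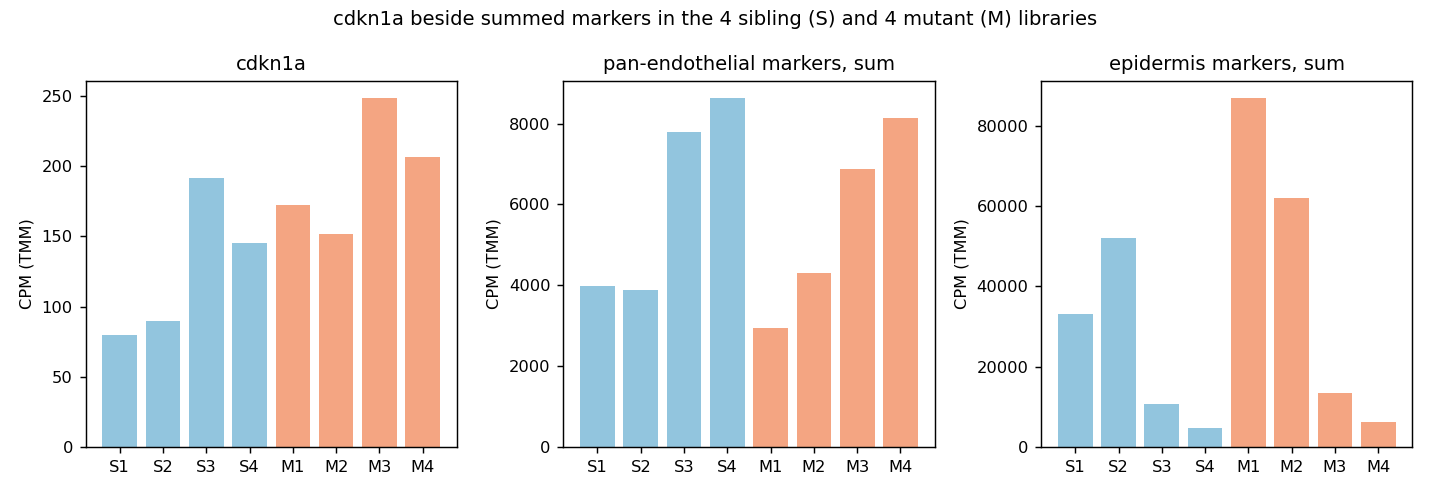
CPM of cdkn1a (left), summed CPM of 15 pan-endothelial markers (middle) and of 13 epidermal markers (right) in siblings 1 to 4 (S, blue) and mutants 1 to 4 (M, orange), 1 bar per library from 0. Libraries 3 and 4 are high for cdkn1a and the endothelial sum and low for the epidermal sum, which reaches 86782 CPM in mutant 1.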

How the data were processed

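RNA sequencing read counts per Ensembl gene were deposited by the authors as raw counts for 8 libraries. The submitters' processing notes name the build GRCz11 and, as tools, edgeR, featureCounts, Subread 2.0.0 and FastQC. For strand setting, annotation release and filters, nothing is stated in the sources used here, and reads shared by gene copies may be split or lost. All 260160 values of the deposited log2 CPM table, named as batch corrected, equalled log2(CPM + 1) of the counts (tolerance 1e-09), so it served only as an alternative.

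Computed here: filterByExpr (minimum count 10, total 15) kept 18549 genes. These were TMM-scaled and fitted with edgeR 4.0.16 quasi-likelihood (robust, group only, R 4.3.3), with p adjusted by Benjamini-Hochberg over all of them. A 95% interval is the estimate ± the t quantile times the SE. DESeq2 1.42.0, limma 3.58.1, other scalings and filters, omitted libraries and pairs, and other pseudocounts were alternatives. The edgeR fit without the block was also run on simulated counts with known changes, all larger than that of cdkn1a. That check cannot show whether differences as small as that of cdkn1a would be found. Depth was 38459219 reads or more, so spread between libraries limits precision (median trended dispersion 0.61). Same-numbered siblings and mutants deviated together from their group means (r = 0.18 to 0.30 in the 4 pairs, -0.27 to 0.15 otherwise), so the numbers were taken as pairs. Nothing says whether libraries of a group came from separate clutches, so p-values cover the spread among the libraries at hand, which may be technical. Counts of replicates in a group did not agree within sampling noise (chi-square of 121 to 897 for each degree of freedom).

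The regulators, lists and tests were chosen with earlier results of these data known. Of 266 list symbols 247 matched, some through human-style symbols. Named genes were the regulators, ddx21, the genes most and least like cdkn1a, and genes among the 3 smallest p of a list. Not every gene among those 3 is named, and for most lists of cell markers none is. CDK6, PCNA, mki67, SKP2, FBXW7, mdm2, CCNG2, PLK2, TP53I11, cdh5, kdrl, lyve1a, lyve1b, FLT4, PROX1 and LCP1 were named after their values were seen. Ratios number 4 because 2 genes share the symbol CDKN1B. The gene of p53 itself was taken off the list of p53 targets after its values had been seen and is not reported here, so that list's counts leave out 1 gene, which was higher in mutants at an unadjusted p under 0.05.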

Additional observations from a re-analysis of the deposited data

Results flagged for a closer look

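The level of cdk4 in mutants was marked because 1 library stood apart from the other 3: mutant 4 held 2.37 CPM (132 reads) and mutants 1 to 3 held 0, 0 and 0.0381 CPM. The gap was 0.984 of the range, above Dixon's 95% critical value for 4 samples. Of the 22 groups examined (11 genes in siblings and in mutants) this was the only 1. For normally distributed values chance marks about 1 in 20, a rate that need not hold for a gene this close to 0 reads.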

How the results depend on the processing

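With the replicate block the fitted log2 fold change of cdkn1a was 0.68, and the block changed no call of edgeR. DESeq2 with the block, added after seeing the data, called cdkn1a (log2 0.68, adjusted p = 0.014), and limma-voom with quality weights and the block, added likewise, did not (log2 0.65, adjusted p = 0.24). In the fit without it the value ran from 0.45 without sibling 1 to 0.88 without sibling 3, and in the exact test the log2 difference ran from 0.49 to 0.91 (exact permutation p from 0.029, without sibling 3, to 0.23). Signs reversed for cdkn1ca without mutant 4 (-0.030, range to 0.55), ccne2 without mutant 3 (0.034, range from -0.91), e2f1 without pair 2 (-0.0097) and the ratio of cdkn1a to CDKN1B ENSDARG00000029018 without mutant 3 (-0.27, range -0.27 to 0.64). Without single libraries the ratio to CDKN1B ENSDARG00000054271 ran from 0.92 to 1.33, that to cdkn1ca from 0.27 to 0.67 (exact permutation p = 0.029 without mutant 4) and that to cdkn2c from 2.59 to 3.57. The last was 2.76 with a pseudocount of 1 and 3.84 with a pseudocount of 0.1 (exact permutation p = 0.029 with either). The exact permutation p was 0.057 without any 1 mutant for the ratio to CDKN1B ENSDARG00000054271, and without sibling 1, sibling 2 or mutant 1 for that to cdkn2c, and 0.029 otherwise. The sign flip of pairs gave 1.12 and 3.13 for those at exact p = 0.125, the smallest that 4 pairs allow, so it says nothing of stability. Genes past an adjusted p of 0.05 numbered 62 with DESeq2, 526 with DESeq2 and the block, 31 with limma-voom, quality weights and the block, 1 without a filter and 2 with the deposited log2 values. At an unadjusted p under 0.05 the block gave 1086, DESeq2 with it 2321, limma-voom 860 and 1410 with the block, no filter 1611 and the deposited values 850. Of 37 tested p53 targets DESeq2 called 4 (62 of all 18549 genes), DESeq2 with the block 7 (526 of all) and limma-voom with the block 3 (31 of all). Of 35 tested S phase genes DESeq2 with the block called 1, where it called 0.987% of all genes higher and 1.85% lower. The causes were not tested. Low reads limit cdk4, e2f1, cdkn2a/b and CDKN1B ENSDARG00000029018.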

Other observations

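By deviations from the group means, rather than raw levels, the 5 genes most like cdkn1a were MYO18A (r = 0.99), foxp1b (0.99), rab1ba (0.98), kctd9b (0.97) and SSR3 (0.97), of which 2 are shared with the 5 named above. By Spearman's rho, where ties at the fifth place gave 8 genes, 3 of those 5 were shared (kctd9b, SSR3 and ARF5). The gene foxp1b, of a forkhead factor, had an r of 0.41 with cdkn1a when group differences were kept.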
